A study of Mus musculus with 3 samples.

Results

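Levels of 7 genes that write, maintain or oxidise DNA methylation were followed in single mouse embryonic stem cells given tubercidin, an adenosine analogue. The genes were Dnmt1, Dnmt3a, Dnmt3b, Dnmt3l, Uhrf1, Tet1 and Tet2, chosen by symbol among the 32285 genes of the deposited matrices. All 7 were found, and all 7 were among the 7884 genes with a mean level over the libraries of at least 10 counts in 1000000 (CPM). Counts are unique molecular identifiers (UMIs), each standing for a captured RNA molecule, and CPM is a share of the UMIs in called cells of a library. The cells were of the E14 line, of 129/Ola background, grown on gelatin in serum with leukaemia inhibitory factor, and were exposed 24 h after seeding. The control library came from cells given DMSO for 6 h, and the treated libraries from cells given 10 uM tubercidin for 3 h or for 6 h. The 3 h library therefore had no control of the same duration. Where 3 values follow each other, they are in the order control, 3 h and 6 h.

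In mammals DNA methylation is placed on cytosines that precede guanines. Dnmt3a and Dnmt3b methylate unmethylated sites, and Dnmt3l, a relative without catalytic activity, binds and stimulates them. Dnmt1 copies the mark to the new strand after replication, and Uhrf1 binds hemimethylated DNA and brings Dnmt1 to it. Tet1 and Tet2 oxidise methylcytosine, a first step of its removal. Stem cells grown in serum hold more DNA methylation than those held in the naive state by kinase inhibitors, and vary from cell to cell in naive genes.

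Each condition was 1 library, so there were no replicates and no difference was tested. The 95% intervals given are exact and reflect counting error alone, not the spread of cultures. Called cells numbered 2031, 2365 and 2926 and carried 104892739, 29892000 and 24681924 UMIs, the median per cell being 48452, 11877 and 8004.5. Fewer RNA molecules per cell and shallower sequencing cannot be told apart here, so levels are given as CPM. Of the cell barcodes, 1 was shared between each pair of libraries. The 9 defining stem cell markers were all detected in every library, with summed levels of 4432, 5201 and 3820 CPM. Most of each sum came from Dppa5a, at 2549, 3555 and 2263 CPM, so the sums do not show how the other markers differed. The lowest marker of each library stood at 77.4, 22.9 and 35.1 CPM. Summed markers of other types were low: 6.72 to 10.9 CPM for 7 primitive-endoderm genes, 10.1 to 14.1 CPM for 7 trophoblast genes, 0.963 to 2.19 CPM for 7 fibroblast genes and 0 to 1.13 CPM for 6 genes of 2-cell-like cells. Sox17 had no UMI at 6 h, 2 of the fibroblast genes had none in each library, and of the genes of 2-cell-like cells 4, 6 and 2 had none.

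Among the genes of maintenance methylation, Dnmt1 was lower at 3 h and at its control level at 6 h, whereas Uhrf1 was higher at both times. Dnmt1 (ENSMUSG00000004099, chr9:20907209-20959888, minus strand, GRCm38) had 17381, 3073 and 4163 UMIs, which were 166, 103 and 169 CPM. The 3 h library stood apart, and the interval of the 6 h level, 164 to 174 CPM, overlapped that of the control, 163 to 168 CPM. On the log2 scale of CPM + 1, Dnmt1 differed from the control by -0.68 at 3 h (interval -0.74 to -0.63) and by 0.03 at 6 h (-0.02 to 0.07). The 6 h library exceeded the 3 h library by 0.71 (0.65 to 0.78), and 95.4% of all genes compared had a lower ratio between these libraries.

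Uhrf1 (ENSMUSG00000001228, chr17:56303321-56323486, plus strand) had 12848, 4190 and 4357 UMIs. Its levels were 122, 140 and 177 CPM, and the intervals of the 3 libraries did not overlap. Its log2 ratio was 0.19 at 3 h (0.14 to 0.24), 0.52 at 6 h (0.48 to 0.58) and 0.33 between 6 h and 3 h (0.27 to 0.39). Because most genes were slightly lower in share at 3 h, with a median log2 ratio of all genes of -0.27, Uhrf1 exceeded the median gene by 0.47 at 3 h and by 0.64 at 6 h.

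Dnmt1 and Uhrf1 were also the members with a short E2F-like sequence near a start site, E2F factors being the regulators of many S-phase genes. Promoter windows from RefSeq (GRCm38.p6), running from 250 bases before to 50 bases after each start, were searched on both strands for TTTCCCGC, TTTCGCGC and TTTGGCGC. At least 1 of the 3 was found in 1.84% of 32851 windows. It was found in 1 of 3 windows of Dnmt1, in 1 of 2 windows of Uhrf1 and in no window of Dnmt3a, Dnmt3b, Dnmt3l, Tet1 or Tet2. By gene, 573 of 27025 genes (2.12%) held a match, against 11 of the 29 S-phase genes used below that had a window (37.9%) and 3 of 46 G2/M genes (6.52%). These groups were unlike in other ways, and each sequence searched holds a CG. The median CG count of a window was 7 over all genes, 21 for S-phase genes, 23 for G2/M genes and 17.5 for the members. The median number of windows per gene was 2 for the members and 1 for the other groups. The part of these differences in the matches was not tested. The stretches around the matches before the start are shown 5′ to 3′ on the gene's strand, with the matched bases in capitals. The Uhrf1 stretch, the 250 bases before a start site (chr17:56304063-56304312, plus strand), is shown because Uhrf1 was the member whose level followed the S-phase score of the cells. The Dnmt1 stretch (chr9:20952824-20952853, minus strand), shown for comparison, holds 1 match in reverse complement and lies in a first exon of 2 annotated transcripts, so 30 bases are given. The same Dnmt1 window had 1 further match, at or after the start, which is not shown. A match is a run of letters and not a measured binding site.
Uhrf1: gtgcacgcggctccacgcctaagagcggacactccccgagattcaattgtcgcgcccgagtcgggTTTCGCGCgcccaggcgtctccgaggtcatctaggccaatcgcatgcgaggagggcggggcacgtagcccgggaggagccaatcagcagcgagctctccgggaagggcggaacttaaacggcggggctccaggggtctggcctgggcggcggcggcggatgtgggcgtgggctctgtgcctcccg
Dnmt1: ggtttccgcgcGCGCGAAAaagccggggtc

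The de novo genes did not move together: Dnmt3l was higher in both treated libraries, Dnmt3b was lower in both, and Dnmt3a stayed close to its control level at 6 h. Dnmt3l (ENSMUSG00000000730, chr10:78041947-78063622, plus strand) was at 56.1, 104 and 94.2 CPM, from 5881, 3095 and 2325 UMIs. Both treated libraries lay far above the control, and their log2 ratios were 0.87 (0.82 to 0.95) at 3 h and 0.74 (0.68 to 0.82) at 6 h. These were the highest ratios among the 7 genes, above those of 98.7% of all genes at 3 h and 95.4% at 6 h. Between 6 h and 3 h the Dnmt3l ratio was -0.14 (-0.21 to -0.06).

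Dnmt3b (ENSMUSG00000027478, chr2:153649450-153687730, plus strand) was at 60.7, 40.9 and 45.3 CPM, from 6368, 1222 and 1118 UMIs. Its ratios were -0.56 (-0.66 to -0.48) at 3 h and -0.41 (-0.52 to -0.33) at 6 h. Both treated levels lay below the control, and at either time Dnmt3b stood at -0.29 against the median gene. Dnmt3a (ENSMUSG00000020661, chr12:3806007-3914443, plus strand) was the least abundant member, with 1983, 462 and 493 UMIs and 18.9, 15.5 and 19.97 CPM. Its ratio was -0.27 (-0.44 to -0.14) at 3 h, which is that of the median gene, and 0.08 (-0.07 to 0.22) at 6 h.

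Dnmt3b has a related copy, and some members have an overlapping gene. Dnmt3c, a rodent copy of Dnmt3b, had 14, 8 and 11 UMIs over all barcodes. Dnmt3b and Dnmt3c transcripts shared 4.995% of windows of 91 bases, and shared 0 of the 1644 windows in the last 500 bases of the Dnmt3b transcripts, the part that a 3′ method reads most. On the opposite strand, Aire overlaps Dnmt3l and stood at 2.09 to 3.25 CPM, Gm42567 overlaps Tet2 at 1.04 to 1.58 CPM, and Dnmt3aos and Dnmt3bos stood at 0 to 0.114 CPM. Each gene of these pairs has its own counts. Whether strand was used in counting is not given in the sources used here, so how reads from the overlaps were assigned could not be checked.

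Both Tet genes were lower in the treated libraries, more so at 3 h than at 6 h. Tet1 (ENSMUSG00000047146, chr10:62804570-62908996, minus strand) was at 415, 223 and 324 CPM, from 43564, 6672 and 8003 UMIs. The 3 intervals did not overlap. The control level was 1.86 times that at 3 h and 1.28 times that at 6 h, with log2 ratios of -0.89 (-0.93 to -0.86) and -0.36 (-0.39 to -0.32). Between 6 h and 3 h Tet1 stood at 0.54 (0.49 to 0.59), against 0.14 for the median gene.

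Tet2 (ENSMUSG00000040943, chr3:133463679-133545139, minus strand) was at 86.2, 44.9 and 55.9 CPM, from 9039, 1341 and 1379 UMIs. Its ratio of -0.93 (-1.03 to -0.86) at 3 h was the lowest of the 7 genes, below those of all but 7.36% of genes compared. At 6 h it was -0.62 (-0.71 to -0.54), again the lowest of the 7. Relative to the median gene, Tet1 and Tet2 stood at -0.62 and -0.65 at 3 h, and at -0.24 and -0.50 at 6 h.

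**Figure D1:**
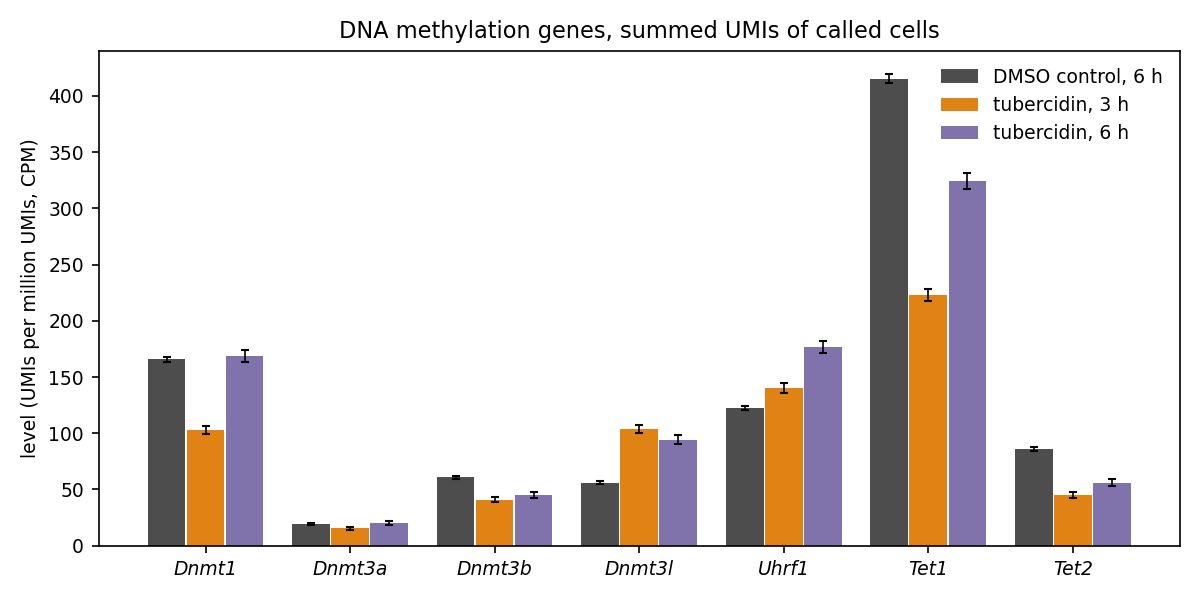
Level of each gene in the 3 libraries, in CPM (y axis, from 0); bars are the libraries and error bars exact 95% Poisson intervals for counting error. Dnmt3l stands at 56.1 CPM in the control and at 104 and 94.2 CPM in the treated libraries, and Tet1 at 415, 223 and 324 CPM.

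With a change of at least 2-fold as the rule of size, 0 of the 7 genes passed in any of the 3 comparisons. Over all 7884 genes, 0.888% passed upward and 5.54% downward in the 3 h library. At 6 h these shares were 2.33% and 4.41%, and between 6 h and 3 h 1.64% and 0.165%. The median log2 ratio of the 7 genes against the control was -0.56 and then 0.03, beside -0.27 and -0.12 for all genes, and 0.33 between 6 h and 3 h, beside 0.14. Both comparisons with the control share the control library. Between 6 h and 3 h, 6 of the 7 genes stood above 0 and Dnmt3l below it.

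The scaling set how many genes of the whole table passed 2-fold. At 3 h the totals of 70 higher and 437 lower genes became 140 and 160 with median-of-ratios factors, which moved the median of all genes from -0.27 to -0.04. Between 6 h and 3 h, 129 higher and 13 lower genes became 55 and 45. With these factors, and with TMM factors, Dnmt3l at 3 h passed 2-fold, with a highest log2 ratio over the scaled alternatives of 1.11. Against the median gene Dnmt3l stood at 1.15 at 3 h and 0.86 at 6 h. Counted as UMIs per cell, which carry depth, all 7 genes were more than 2-fold lower at both times, from -1.13 for Dnmt3l at 3 h to -3.17 for Tet2 at 6 h. So were most genes, and this count does not set the members apart. With this measure 7996 genes were lower and 2 higher at 3 h, and 8020 lower and 1 higher at 6 h. The medians of all genes were -2.25 and -2.65.

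**Figure D2:**
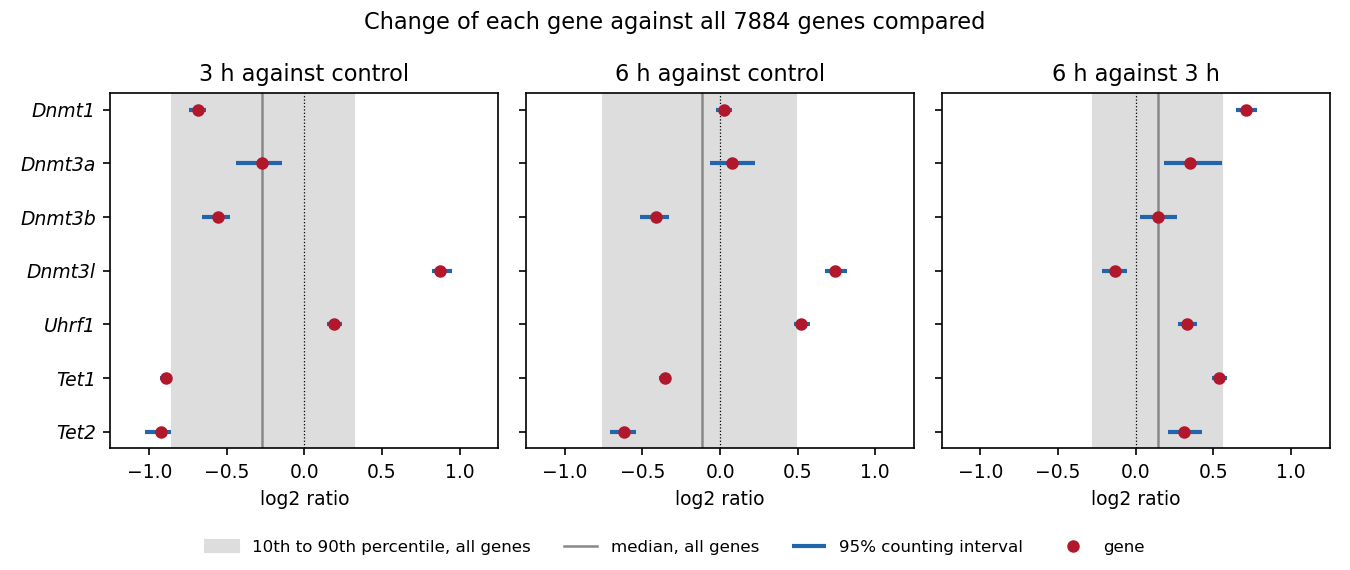
Log2 ratio of each gene (x axis) in the 3 comparisons, as points with 95% counting intervals as bars, over the median (line) and the 10th to 90th percentile (grey) of 7884 genes. Dnmt3l lies above the grey range in both comparisons with the control, and Tet1 and Tet2 lie below it at 3 h only. Uhrf1 lies above it at 6 h against the control, and Dnmt1 between 6 h and 3 h.

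Shares of single cells with a UMI were compared at equal depth, and the libraries stood in the same order as in CPM for each member except Dnmt1. For this, 4000 UMIs were drawn from every cell, and 0, 122 and 284 shallower cells were left out. A Dnmt3l UMI was then found in 19.0% of 2031 control cells (Clopper-Pearson interval 17.3 to 20.7%), 30.9% of 2243 3 h cells (28.9 to 32.8%) and 27.9% of 2642 6 h cells (26.2 to 29.7%). For Tet1 the shares were 78.0% (76.1 to 79.8%), 55.5% (53.4 to 57.5%) and 65.5% (63.7 to 67.3%). Tet2 UMIs were found in 28.4%, 16.4% and 19.2% of cells, and Dnmt3b UMIs in 20.1%, 14.3% and 14.6%. For Uhrf1 the shares were 37.7%, 41.8% and 49.8%. Dnmt1 was at 48.6%, 33.0% and 46.6%, with overlapping intervals in the control and at 6 h. Dnmt3a shares of 6.50%, 5.80% and 7.19% had intervals that all overlapped. Without thinning, the control had the highest share for all 7 genes, for example 83.0% for Dnmt3l against 60.9% at 3 h and 45.5% at 6 h, as its cells held most UMIs.

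**Figure D3:**
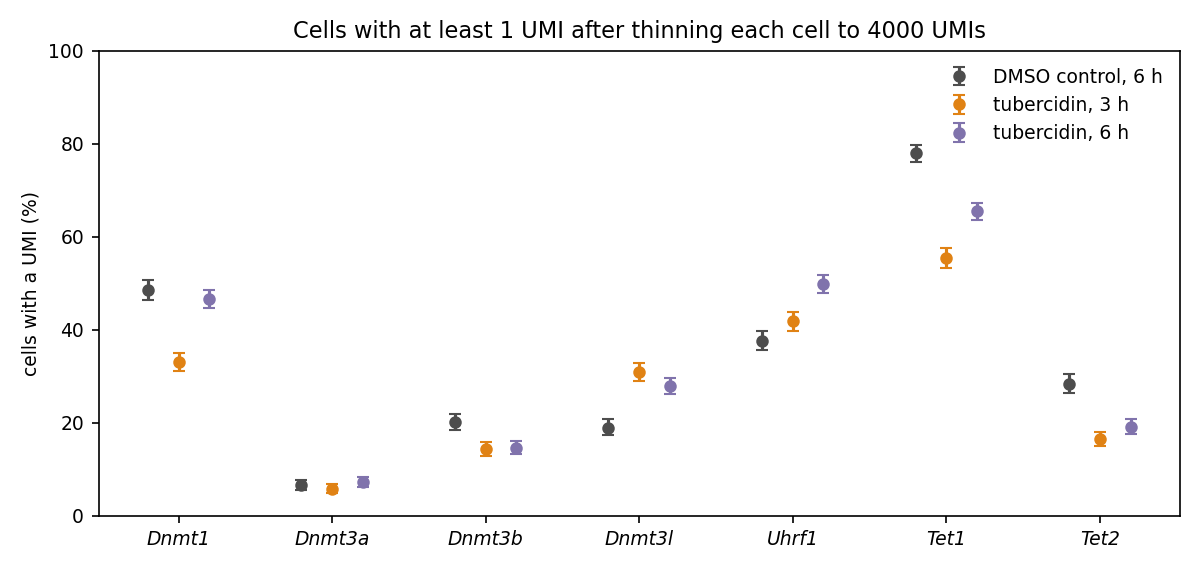
Share of cells with at least 1 UMI of each gene (y axis, percent) after thinning every cell to 4000 UMIs; points are libraries and bars exact Clopper-Pearson intervals. The control point is lowest for Dnmt3l, at 19.0%, and highest for Tet1, at 78.0%.

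No cell type that should lack these genes was present, so the 10000 barcodes that rank next below the first 5000 served as the free-RNA background, all under the cell minimum. Their median depth was 343, 210 and 138 UMIs. Tet1 UMIs were found in 12.1%, 2.68% and 3.15% of them, and those of each other member in at most 3.89%. In these barcodes Dnmt3l was at 61.4, 74.8 and 109 CPM and Tet1 at 378, 128 and 233 CPM, so both differed from the control in the same direction as in cells. Uhrf1 was at 116, 94.5 and 173 CPM there, below the control at 3 h, whereas in cells it was above it. In these barcodes the intervals of the control and 3 h overlapped for Uhrf1 (105 to 128 and 81.9 to 108 CPM). They also overlapped for Dnmt3l (53.4 to 70.2 and 63.7 to 87.4 CPM). Dnmt1 had the lowest level relative to cells in each library, 0.593, 0.473 and 0.499 times its level in cells, beside 0.839, 0.747 and 0.772 for the median gene. The part of free RNA in the differences was not tested beyond a subtraction of its profile at 10% of UMIs, which kept the sign of each ratio of the 7 genes against the control.

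Within each library, cells were ordered by a cell cycle score, the share of thinned UMIs from 41 S-phase genes less that from 52 G2/M genes, with no member among them. The cells were divided into 3 equal bins, and members were read from all UMIs of the cells in a bin. The score is a range and not a set of phases. Uhrf1 was the member that followed it most. In the control Uhrf1 stood at 101 CPM in the lowest bin, 126 CPM in the middle bin and 144 CPM in the highest bin, the one richest in S-phase genes. The highest bin exceeded the lowest by 0.51 on the log2 scale in the control (0.45 to 0.57), by 0.35 at 3 h (0.24 to 0.46) and by 0.32 at 6 h (0.21 to 0.43). The slope was thus seen in all 3 libraries.

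Dnmt1, an enzyme that acts at replication forks, showed no such slope beyond counting error. Its highest and lowest bins differed by 0.04 (-0.01 to 0.09), 0.03 (-0.10 to 0.16) and 0.11 (-0.00 to 0.22), each interval including 0. Tet1 was at 248 CPM in the lowest bin and 205 CPM in the highest at 3 h, a difference of -0.27 (-0.36 to -0.19), while in the control it was at 421 and 422 CPM. At 6 h the Tet1 difference was -0.12 (-0.20 to -0.04). Dnmt3b differed by -0.12 in the control (-0.21 to -0.03), and by -0.11 and -0.16 in the treated libraries with intervals that included 0. For Dnmt3a, Dnmt3l and Tet2 the interval included 0 in every library. Without the most abundant genes of the score (Nasp, Hmgb2 and Tubb4b), a choice made after seeing the data, Uhrf1 had 0.53, 0.33 and 0.32. Tet2 then had -0.32 (-0.51 to -0.12) in the 3 h library and -0.26 (-0.46 to -0.07) in the 6 h library, and -0.02 in the control. Tet1 had -0.36 and -0.23 in the treated libraries, Dnmt3b -0.17, -0.21 and -0.27 and Dnmt3l -0.09, -0.12 and -0.18. The intervals of these Tet1 and Dnmt3b values excluded 0, and that of Dnmt3l included 0 only at 3 h. Median UMIs per cell also differed along the bins, from 55723 in the lowest to 44835 in the highest in the control, and their part was not tested.

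The larger differences between libraries were also present when bins of the same rank in the cycle score were compared. The bins were cut within each library, so bins of the same rank were not matched in cycle state. Summed G2/M genes in the lowest bin were at 11639, 8795 and 9550 CPM, beside 8458 CPM in the highest control bin. Whether the differences hold at a matched cycle state was therefore not tested. Dnmt3l at 3 h ranged from 0.86 to 0.89 over the 3 bins and Tet2 from -1.11 to -0.84. Tet1 ranged from -1.04 to -0.76 and Dnmt1 from -0.75 to -0.67. Uhrf1 at 6 h ranged from 0.40 to 0.69. The summed S-phase genes stood at 5924, 5143 and 5455 CPM, and the summed G2/M genes at 9990, 7573 and 8380 CPM.

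**Figure D4:**
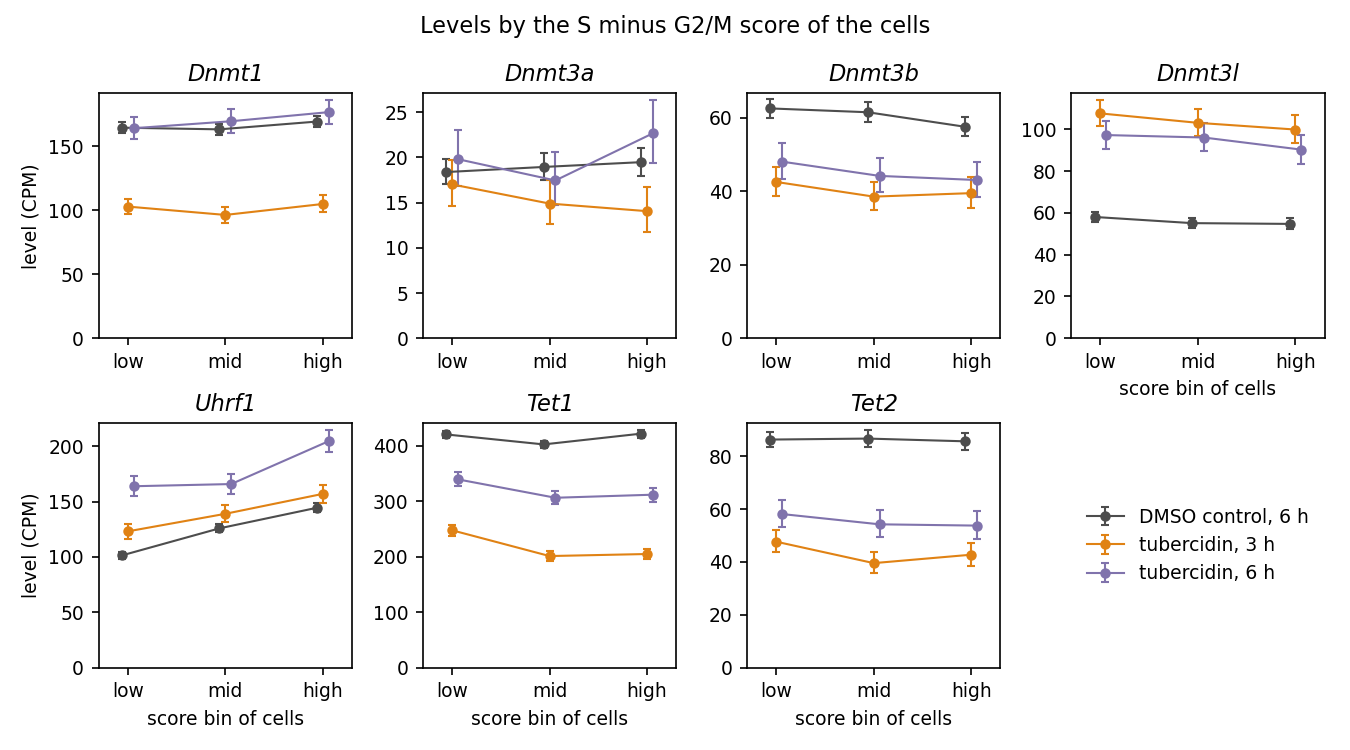
Level in CPM (y axis, from 0) in the low, middle and high bins of cells by S minus G2/M score (x axis), 1 panel per gene and 1 colour per library, with exact 95% Poisson intervals. Uhrf1 goes from 101 to 144 CPM in the control, while Dnmt1 stays between 163 and 169 CPM.

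A second order of cells used the share of thinned UMIs from 17 naive pluripotency genes. Dnmt3a and Dnmt3b were lower in cells with a higher naive share, and Tet2 was higher. In the control Dnmt3a went from 22.7 CPM in the lowest bin to 15.5 CPM in the highest, a log2 difference of -0.55 (-0.71 to -0.39). Dnmt3b went from 70.6 to 52.4 CPM, a difference of -0.43 (-0.52 to -0.34), and Tet2 from 78.3 to 96.9 CPM, a difference of 0.31 (0.23 to 0.38). Dnmt1 and Tet1 differed by 0.02 and -0.01, and Dnmt3l, the partner of Dnmt3a and Dnmt3b, by -0.07 (-0.16 to 0.03). Uhrf1 differed by -0.09 (-0.15 to -0.03), -0.12 (-0.23 to -0.01) and -0.02 (-0.13 to 0.09) in the 3 libraries.

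In the treated libraries Dnmt3a had slopes of -0.63 (-0.98 to -0.29) and -0.48 (-0.82 to -0.15). For Dnmt3b they were -0.40 (-0.60 to -0.20) and -0.30 (-0.52 to -0.09). For Tet2 they were 0.19 and 0.15, with intervals that included 0. Dppa5a, an abundant stem cell gene, made up 47.3%, 61.3% and 53.0% of the naive score. Without Dppa5a, a choice made after seeing the data, the control slopes were -0.45 for Dnmt3a (-0.60 to -0.29), -0.40 for Dnmt3b (-0.49 to -0.31) and 0.48 for Tet2 (0.40 to 0.55). Tet2 then had 0.61 (0.40 to 0.81) at 3 h and 0.43 (0.23 to 0.62) at 6 h. Dnmt3b then had -0.13 (-0.33 to 0.08) and -0.07 (-0.28 to 0.14), and Dnmt3a -0.19 (-0.53 to 0.15) and -0.38 (-0.72 to -0.04). The intervals of Dnmt3b in the treated libraries, and of Dnmt3a at 3 h, thus included 0 without Dppa5a. They overlapped the intervals with Dppa5a, and the signs stayed negative. Whether these slopes depend on Dppa5a was not tested. The sign of Tet1 turned in every library, from -0.01, -0.03 and -0.09 with Dppa5a to 0.10, 0.23 and 0.21 without it. Both Tet1 intervals at 6 h excluded 0 (-0.17 to -0.01 and 0.13 to 0.29). Dnmt3l went from -0.07, 0.09 and 0.09, with intervals that included 0, to -0.15, -0.19 and -0.13. Its sign thus turned in both treated libraries. Dnmt1 turned at 6 h, from -0.09 (-0.20 to 0.02) to 0.11 (0.00 to 0.22). The sign of Uhrf1 turned in every library, to 0.02 (-0.04 to 0.08), 0.13 (0.02 to 0.25) and 0.13 (0.02 to 0.24).

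**Figure D5:**
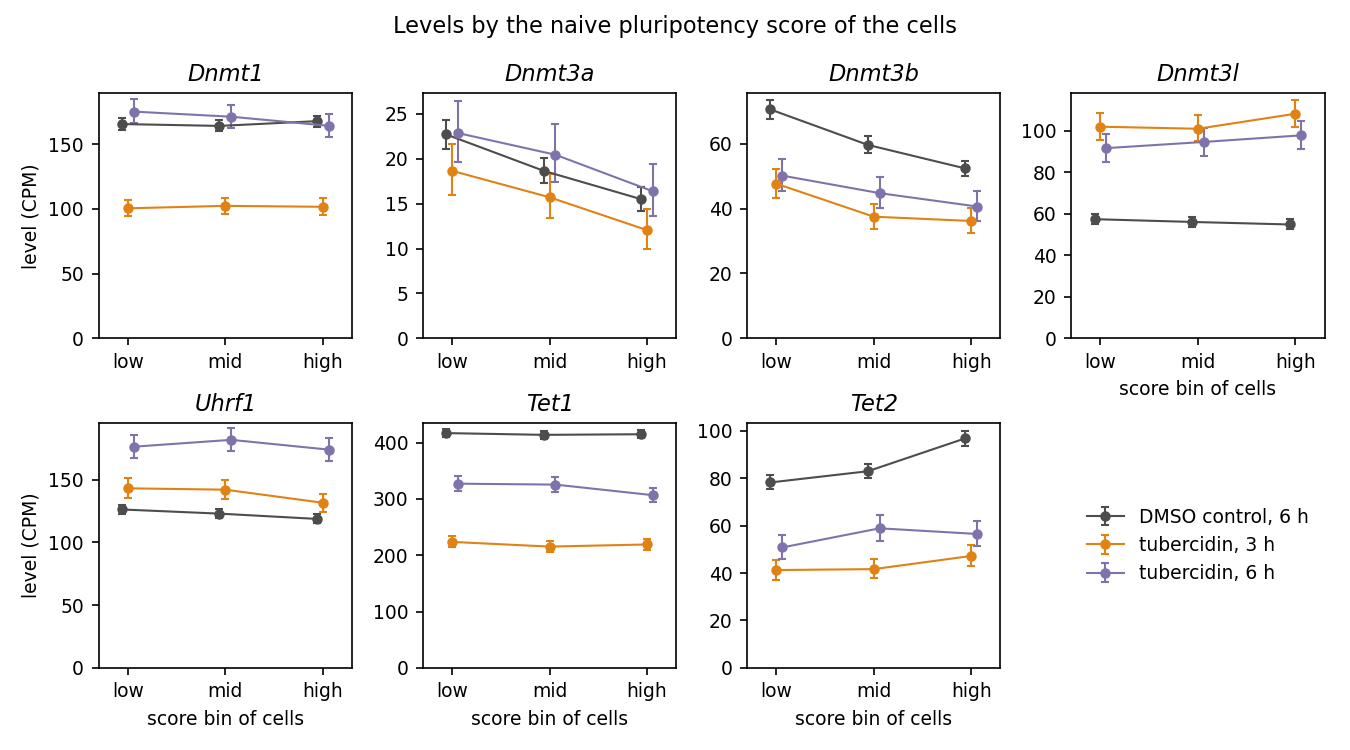
Level in CPM (y axis, from 0) in the low, middle and high bins of cells by naive score (x axis), drawn as in the plot by cell cycle score. In the control Dnmt3a goes from 22.7 to 15.5 CPM, Dnmt3b from 70.6 to 52.4 CPM and Tet2 from 78.3 to 96.9 CPM.

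Across the 2031 control cells, the members were compared with each other and with 3253 named genes of at least 50 CPM by Spearman correlation of UMIs per 10000 (3254 genes for Dnmt3a). These values describe cells of 1 library that share depth and counting noise. The closest pair among the members was Tet1 and Tet2 (rho = 0.244), followed by Dnmt3b and Dnmt3l (0.201), and Dnmt1 with Uhrf1 stood at 0.114. In control cells thinned to 4000 UMIs these pairs stood at 0.030, 0.063 and -0.003, so their order was not kept there. In the unthinned treated cells it was kept, at 0.107, 0.098 and 0.013 at 3 h and 0.130, 0.092 and 0.073 at 6 h. The genes nearest to Uhrf1 were Ccne1 (0.343), Pcna (0.315) and Rrm2 (0.312), an S-phase cyclin, the replication clamp and a subunit of ribonucleotide reductase. Those nearest to Tet1 were Jarid2 (0.443), Kat6b (0.407) and Enox1 (0.396), and to Tet2 Kat6b (0.375), Zfp57 (0.316) and Nfib (0.314). Dnmt1 was nearest to Hnrnpa3 (0.367), L1td1 (0.320) and Hirip3 (0.318). For Dnmt3b the list was headed by Dnmt3l itself, then Sms (0.188) and Rasgrp2 (0.171), and for Dnmt3l, after Dnmt3b, by the small heat shock gene Hspb1 (0.188) and the metallothionein Mt2 (0.185). Dnmt3a had the lowest values, 0.135 with Fam169a, 0.124 with Ptprg and 0.122 with Ccne1. At the depth of the treated cells these values were lower, at 0.235 and 0.194 for Tet1 with Jarid2, and in the thinned control cells that pair stood at 0.104. Uhrf1 stood there at 0.032 with Ccne1, 0.020 with Pcna and 0.042 with Rrm2. The median of Uhrf1 over all genes compared was 0.028 in unthinned control cells. In the treated cells Uhrf1 stood at 0.127 and 0.086 with Ccne1, 0.065 and 0.042 with Pcna and 0.070 and 0.068 with Rrm2. Tet2 with Kat6b stood at 0.056 and Dnmt1 with Hnrnpa3 at 0.049 in the thinned control cells.

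The wider pathway was described by 5 lists of other genes, of which 46 of 63 had a mean of at least 10 CPM. In these lists 0 genes were at least 2-fold higher and 1, Mbd4, lower (2.17%, beside 5.54% of all genes) at 3 h, and 0 higher and 3 lower (6.52%, beside 4.41% of all genes) at 6 h. The 3 lower genes at 6 h were Gadd45a, Mbd4 and Zfp57. Gadd45a, a stress gene linked to demethylation, was at 18.8, 8.97 and 6.00 CPM, with log2 ratios of -0.99 and -1.50. Mbd4, a glycosylase that reads methylated DNA and removes mismatched thymine, was at 25.6, 7.93 and 9.76 CPM, with ratios of -1.57 and -1.30. Zfp57, which guards methylation at imprinted regions, was at 87.8, 70.1 and 40.8 CPM, with ratios of -0.32 and -1.09. These genes thus belong to 3 different lists.

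Among partners of maintenance, the median of 8 genes was -0.34 and then 0.06. Lig1, the ligase of replication, was highest at 6 h with 0.75, and Uhrf2, a paralog of Uhrf1, next with 0.28. Pcna and Pclaf were lowest, with -0.84 and -0.82. Hells, a remodeller needed for methylation of repeats, stood at -0.19 at 3 h and -0.12 at 6 h. Among 13 genes that target or limit methylation the medians were -0.41 and -0.13. Ehmt2 had 0.52 and Kdm2b 0.47 at 6 h, and Mphosph8 had -0.58. Kdm2b was the 1 gene of all 46 in the 5 lists at least 2-fold higher at 6 h than at 3 h, at 31.5 and 66.7 CPM. That share, 2.17%, stood beside 1.64% of all genes and does not set the lists apart. Dppa3, which keeps Uhrf1 from chromatin, and Prdm14, a repressor of Dnmt3b, stayed below 10 CPM, at 8.04, 6.99 and 5.10 CPM and at 2.44, 2.38 and 1.74 CPM.

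Among 7 other genes of oxidation and repair the medians were -0.25 and -0.29, with Xrcc1 at 0.47 and Apex1 at 0.31 at 6 h, and Cxxc5 at -0.53. Tdg, the glycosylase that removes oxidised methylcytosine, was at 65.3, 42.2 and 51.1 CPM, with ratios of -0.62 and -0.35. Tet3 was at 10.1, 5.19 and 7.94 CPM, and its mean was below 10 CPM. Of 6 genes in the list of methyl-CpG readers and their relatives the medians were -0.74 and -0.46. Mbd3 was highest at 6 h at 0.43, with Mbd2 at -0.13 and Mbd5 at -0.65. Not every gene of this list need bind methylated DNA. Of 12 genes of methyl donor supply the medians were -0.37 and -0.29. Mat2a, which makes S-adenosylmethionine, was at 484, 264 and 265 CPM, a ratio of -0.87 at both times, and Mthfd2 had -0.90 at 6 h. Mtr had 0.35 and Shmt2 0.33. Adk, the kinase that phosphorylates adenosine, was at 124, 92.3 and 105 CPM. Ahcy, which clears S-adenosylhomocysteine, was at 6.83, 11.1 and 11.9 CPM, with ratios of 0.63 and 0.72. Its mean was below 10 CPM (9.95), so it was not one of the 12 genes.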

How the data were processed

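Polyadenylated RNA of single cells was barcoded with 10x Genomics Chromium 3′ v3 chemistry, per the labels. What the authors deposited are unfiltered matrices of UMI counts. The file headers name Cell Ranger 7.1.0, and the build was mm10, per the submitters' processing notes. The annotation, the strand setting and whether intronic reads were counted are not given in the sources used here.

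A barcode was a cell if it reached 1/10 of the 99th percentile of UMIs among the top 3000 barcodes (11034, 2961 and 2107 UMIs), showed 500 genes or more and held no more than 20% mitochondrial UMIs. Doublets were kept and no caller was run. Counts were summed over cells and scaled to CPM. Ratios are on the log2(CPM + 1) scale, which understates the change of low genes. Their intervals are conditional binomial intervals without that pseudocount, and levels have Poisson intervals. No test was possible with single libraries.

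The members and lists were chosen with earlier results of these data known. Named genes were all members, the 2 highest and 2 lowest 6 h ratios of each list, Tet3, Dppa3, Prdm14, Hells, Tdg, Mat2a, Ahcy, Adk and Dazl, and the 3 genes most correlated with each member. Kdm2b between 6 h and 3 h, markers without a UMI and Dppa5a were singled out after their values were seen. Pclaf was matched under its current symbol, and its older one was not found. Positions came from GENCODE M21 and promoters from RefSeq, both of the GRCm38 (mm10) build. The statistics were tested on simulated data. Alternatives covered cell minimum, mitochondrial limit, cells with many UMIs, scaling (TMM from edgeR 4.0.16), free RNA, cell weight, pseudocount, the filter on low genes, and score depth, bins and genes. Python 3.11.15, numpy 2.4.6, pandas 2.3.3 and scipy 1.17.1 were used.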

Additional observations from a re-analysis of the deposited data

How the results depend on the processing

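No paired analysis was possible because each condition was 1 library without a replicate number. Apart from UMIs per cell, 10 alternatives were run for each ratio of a member. Against the control the sign was kept under all 10 for every member at 3 h and for every member except Dnmt1 at 6 h, which lay between -0.01 and 0.04. Between 6 h and 3 h it was kept except for Dnmt3b, from -0.08 to 0.19. At 3 h the members past 2-fold went from 0 to 1 (Dnmt3l) with either kind of size factor, and to 7 under UMIs per cell, as at 6 h. Genes past 2-fold at 3 h, 507 in all, were 300 with median-of-ratios factors, 324 with TMM, 7998 as UMIs per cell, 117 with a mean of at least 50 CPM and 1081 without a filter. At 6 h, 532 became 8021 as UMIs per cell, 117 at 50 CPM and 1386 without a filter. Between 6 h and 3 h, 142 became 255, 27 and 422. UMIs per cell carry depth, and the filters change the number of genes compared. The counts of 7998 and 8021 exceed the 7884 genes of the main setting, so UMIs per cell also covered another set of genes. These counts are thus not shares of the same genes. Of 21 combinations of member and library, 2 differed at least 1.25-fold between the outer bins of the cycle score, and 1 with 2 bins instead of 3. For the naive score 5 did. Signs were kept in 41 of 42 with 2 bins, 41 of 42 with an unthinned score and 30 of 42 without the most abundant score genes, a choice made after seeing the data. The control had the highest share of cells with a UMI for 4 members when thinned and for 7 when not. The limit that a count of 0 allows (3 counts) was 0.0286, 0.100 and 0.122 CPM in the 3 libraries.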

Other observations

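Germline genes that promoter methylation is known to keep silent were looked at beside the enzymes. Of 12 such genes, 3 had a mean of at least 10 CPM (Sycp3, Tex19.1 and Ddx4, singled out after their values were seen), and 0 of them were 2-fold higher or lower at 3 h or 6 h. Of all 7884 genes 0.888% were higher and 5.54% lower at 3 h, and 2.33% and 4.41% at 6 h, so a count of 0 among 3 genes does not set them apart. The summed level of the 12 genes was 71.4, 57.6 and 61.8 CPM (control, 3 h, 6 h). Dazl, a germ cell RNA-binding protein, was at 2.32, 2.17 and 1.82 CPM, and Asz1 was without a UMI in all 3 libraries.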
